A study of Mus musculus with 66 samples.

Results

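The genes described here encode proteins of germ granules and of the piRNA pathway, the machinery that handles RNA in male germ cells. The list held 10 genes, Ddx4, Dazl, Piwil1, Piwil2, Tdrd1, Tdrkh, Mov10l1, Mael, Ddx25 and Ybx2. Every probe set that the array annotation assigned to 1 of them alone was taken, which gave 13 of 36899 probe sets. These covered 8 of the 10 genes, of 15964 genes so named on the arrays. The plots of signals and of changes from day 0 carry the probe set identifiers. Piwil1, a PIWI protein of meiotic and postmeiotic germ cells, and Tdrd1, a Tudor-domain partner of PIWI proteins, had 0 probe sets by symbol, synonym or gene identifier and are absent from all results below. Ddx25 had 3 probe sets, Ddx4, Dazl and Mov10l1 had 2 each, and Piwil2, Tdrkh, Mael and Ybx2 had 1 each.

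Total RNA of whole testis from BL/6-129 mice was measured on 66 oligonucleotide arrays. The ages were days 0, 3, 6, 8, 10, 14, 18, 20, 30, 35 and 56 postpartum, and the labels number 2 samples for each age on each of 3 array types, called A, B and C. The labels name no treatment or targeted allele, and from them it cannot be seen if a sample is 1 animal or a pool. The p-values therefore measure only the spread between these samples, which may be technical.

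Germ granules are RNA and protein bodies without a membrane, found beside mitochondria in spermatogonia and spermatocytes and as the chromatoid body in round spermatids. In them PIWI proteins carry piRNAs, short RNAs cut from long precursors, which direct the silencing of transposons. Other granule proteins hold or translate messenger RNAs that spermatids make early and use late. In the mouse the first round of spermatogenesis runs almost in step: the newborn testis holds gonocytes, spermatogonia follow within days, spermatocytes fill the tubules in the second and the third week, and spermatids appear after them.

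Levels are signals on a linear scale that the authors set to a mean of 125 per array. Changes are given as the later minus the earlier day on a log2(signal + 16) scale ± SE, which understates the change of dim probe sets. A change was called at an adjusted p under 0.05 and at least 2-fold on this scale, with limma's moderated test and Benjamini-Hochberg adjustment over 26941 probe sets. All 13 probe sets passed the filter on low signals. Counts of members called are counts of these probe sets, so a gene with several can count more than once. In whole testis, fewer cells of a type and less RNA per cell cannot be told apart.

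Marker genes were used as a guide to the cell types of each age, and cells were not counted. Bright markers weigh most in the sums, such as Hspa2 among the spermatocyte markers, with a highest day mean of 9284 on day 20. The summed signal of 9 of 10 spermatocyte markers lay between 911.3 and 2445 on days 0 to 10, between 6734 and 7686 on day 14 and between 13530 and 18320 on days 18 to 56. The summed signal of 10 of 10 spermatid markers lay between 286.1 and 1590 on days 0 to 20 and between 35840 and 60090 on days 30 to 56. Of 10 gonocyte and spermatogonia markers 8 were measured. Between days 0 and 8, 5 were called higher, and on day 20 against day 14, 3 were called lower (Zbtb16, Kit and Stra8) and 1, Dmrtb1, higher. Their sum without Dmrtb1, which was set apart after its values were seen, was 678.9 to 1141 on days 0 and 3, 1691 to 2498 on days 6 to 14, 814.7 to 1217 on days 18 and 20 and 550.2 to 644 on days 30 to 56. Dmrtb1 alone gave 1987.7 to 3461.7 on days 30 to 56. Sertoli cell markers, 11 of 11 measured, summed to 6677 to 8398 on days 0 to 14 and to 2816 to 5057 on days 18 to 56. Their part in the members' changes was not tested. The samples of a day correlated least on day 0, with r of 0.931, 0.863 and 0.834 on types A, B and C, and on type A and B day 20 came next, with 0.936 and 0.869. The beta-actin control (3′ probe set) was higher in sample 2 on all 8 days from 0 to 20 on type A, by 2.16 to 4.91 times. On types B and C it was lower in sample 2 on all 8 of those days, at 0.271 to 0.762 and 0.283 to 0.643 of sample 1. On days 30 to 56 this ratio lay between 0.812 and 1.15 on the 3 types. The Gapdh control (3′ probe set) was higher in sample 2 on 4 of the 8 days from 0 to 20 on each type. Whether a number marks the same RNA on all 3 types was not tested; each probe set was fitted within its own type.

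Promoters of 9 of the 10 genes were found in RefSeq (GRCm38.p6), with 12 windows in all because some genes have several starts. Each window holds 300 bases and begins at position -249 from the start on the plus strand and -250 on the minus strand. Piwil2 is named only. The palindrome CACGTG, an E-box, was in windows of 6 of the 9 genes, Ddx4, Piwil1, Tdrd1, Mov10l1, Mael and Ddx25. In Ddx25 it lay after the start, at position 37. By window it was in 7 of the 12, against 7.15% of 32851 mouse promoters. Of the 11765 promoters whose ratio of observed to expected CpG was at least 0.6, 11.3% held it. The Tdrd1 windows counted among the 7 overlap and share the same E-box site, at positions -10 and -76 from different starts. CCAAT, read on both strands, was in windows of 8 of the 9 genes, all but Tdrd1. By window it was in 8 of the 12, against 37.4% of all promoters. The E2F core GCGGGA was in those of 4 genes, Ddx4, Mael, Ddx25 and Ybx2. By window it was in 5 of the 12, against 20% of all and 43.1% of the CpG-rich promoters. CNGTTG, a form of the core that MYB proteins bind, was found for Piwil1 alone, against 35% of all promoters. Other forms of this core were not searched for. The cyclic AMP element TGACGTCA was found for none of the 9, against 1.79%. CpG-rich windows made up 10 of the 12, against 35.8% of all promoters. These matches describe the letters of the windows and are not shown to be bound sites.

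The stretches of 4 measured genes that hold these letters are printed 5′ to 3′, ending before the start, with the E-box in capitals in the first 3 and CCAAT or its reverse ATTGG in capitals in the last. They are Ddx4 at chr13:112652311-112652369 on the minus strand, Mov10l1 at chr15:88982744-88982783 on the plus strand, Mael at chr1:166238932-166238994 on the minus strand and Tdrkh at chr3:94413113-94413227 on the plus strand. The first E-box base lies at position -29 from the start in Ddx4, -245 in Mov10l1 and -223 in Mael.
Ddx4: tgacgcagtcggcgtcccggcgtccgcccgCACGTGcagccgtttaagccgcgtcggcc
Mov10l1: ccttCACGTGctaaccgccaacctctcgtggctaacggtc
Mael: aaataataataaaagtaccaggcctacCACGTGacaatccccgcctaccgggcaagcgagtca
Tdrkh: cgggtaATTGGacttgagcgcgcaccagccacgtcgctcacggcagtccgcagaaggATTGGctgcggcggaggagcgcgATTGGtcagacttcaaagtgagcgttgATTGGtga
Mov10l1 and Tdrkh, whose signals ran alike over the days, did not share the E-box in these windows. Tdrkh had CCAAT at 5 positions, 4 of which are printed.

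Over all 11 days, 10 of the 13 probe sets passed the moderated F-test, against 45.0% of all probe sets tested. Those that did not pass were the brighter Dazl probe set (adjusted p = 0.0565), the dimmer Ddx4 one (adjusted p = 0.0845) and the dimmer Mov10l1 one (adjusted p = 0.109). By their brightest probe sets, the genes fell into courses of unlike shape. Piwil2, Tdrkh and Mov10l1 rose between days 0 and 8 and fell between days 20 and 35. Ybx2 rose most between days 10 and 18 and Ddx25 between days 14 and 18, and both were still high in the adult, as was Mael. Ddx4 was higher than on day 0 from day 6 to day 56.

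**Figure D1:**
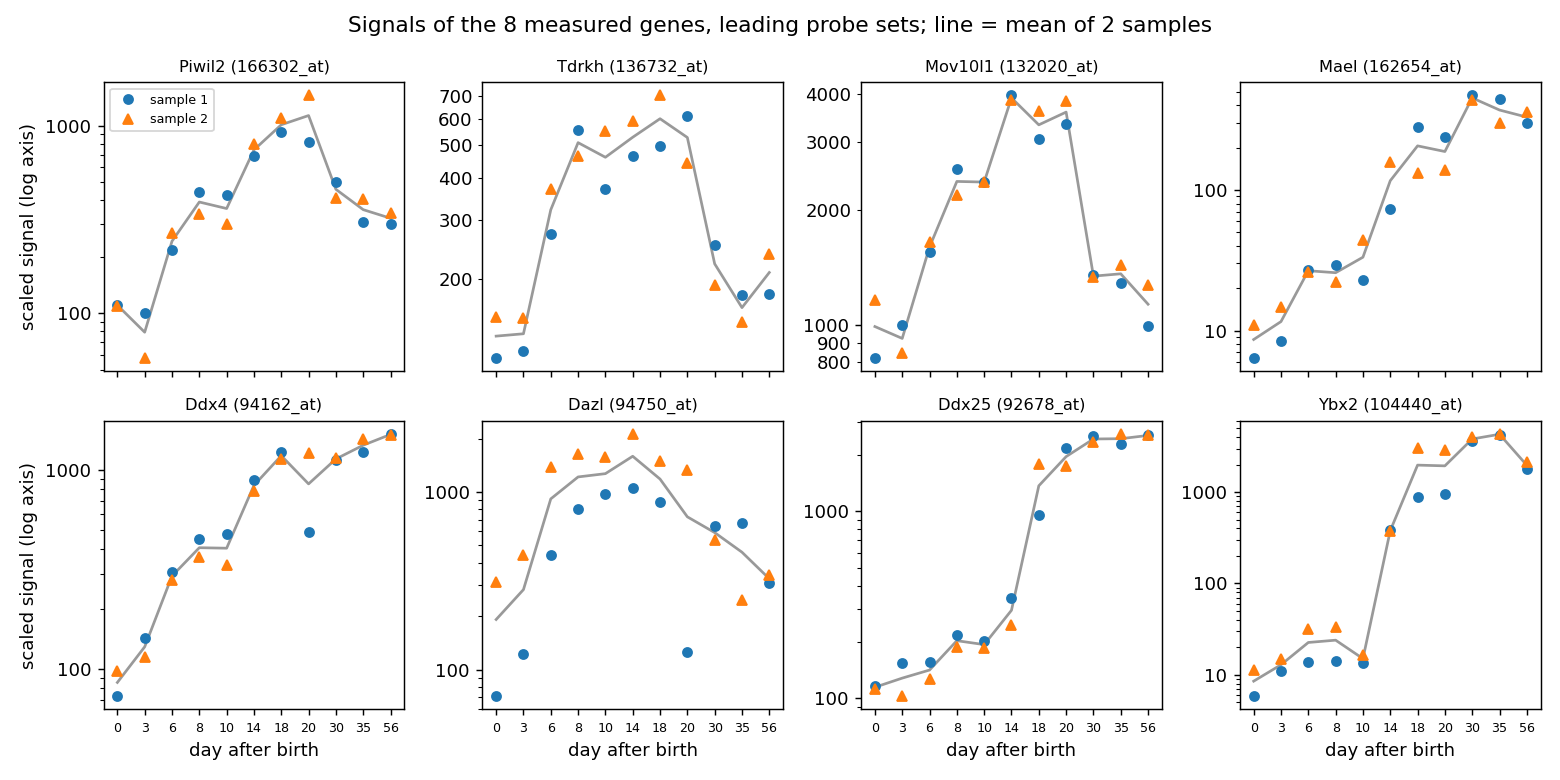
Signal of the brightest probe set of each of the 8 measured genes on a log axis, against the day after birth (days spaced evenly). Circles and triangles are the 2 samples of a day and the line joins their means; Piwil2, Tdrkh and Mov10l1 have their highest means on days 14 to 20, whereas Mael, Ddx4, Ddx25 and Ybx2 have theirs on days 30 to 56.

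Among the proteins that make and carry piRNAs, Piwil2 encodes MILI, a PIWI protein that cuts transposon and precursor RNA. Its signal, on type C, was 111.1 and 109.6 on day 0, 100.7 and 57.8 on day 3, and 217.5 and 267 on day 6. It was 444 and 339.4 on day 8, 425.1 and 298.2 on day 10, 691.5 and 793.9 on day 14, and 925.5 and 1095.7 on day 18. It was 816.4 and 1448.4 on day 20, 503.5 and 412.1 on day 30, 306.8 and 406.5 on day 35, and 299.1 and 343 on day 56. Both samples of every day from day 6 on lay above both samples of days 0 and 3, and both adult samples lay below those of days 14 to 20. Piwil2 rose by 1.68 ± 0.30 on day 8 over day 0 (adjusted p = 0.006) and was called higher than on day 0 from day 8 at every later day, as were 0.338% of all probe sets. It fell by 1.58 ± 0.30 on day 35 against day 20 (adjusted p = 0.00239). On day 56 it was still 1.41 ± 0.30 above day 0 (adjusted p = 0.00124).

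Tdrkh encodes a Tudor-domain protein of the mitochondrial surface that holds PIWI proteins while the ends of their piRNAs are trimmed. Its signal, on type C, was 116.6 and 154.3 on day 0, 122.3 and 153 on day 3, 272 and 371.5 on day 6, and 555.2 and 464.4 on day 8. It was 370.8 and 551.7 on day 10, 464.9 and 593 on day 14, 496.8 and 704.4 on day 18, and 612.1 and 444.1 on day 20. It was 252.2 and 192.2 on day 30, 179.5 and 149.6 on day 35, and 180.4 and 238.5 on day 56. The samples of days 8 to 20 all lay above those of days 0, 3 and 30 to 56, and among days 8 to 20 the samples overlapped. Tdrkh rose by 1.80 ± 0.30 on day 8 over day 0 (adjusted p = 0.00283) and fell by 1.58 ± 0.30 on day 35 against day 20 (adjusted p = 0.00191). Day 56 was 0.57 ± 0.30 above day 0 and was not called (adjusted p = 0.145).

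Mov10l1 encodes the germ cell RNA helicase that feeds piRNA precursors into the pathway. Its brighter probe set, on type C, gave 820.9 and 1161.1 on day 0, 1002 and 843.5 on day 3, 1548.8 and 1646.1 on day 6, and 2546.3 and 2188 on day 8. It gave 2359.2 and 2357.6 on day 10, 3964.8 and 3849.9 on day 14, 3045.6 and 3601.7 on day 18, and 3333.8 and 3843 on day 20. It gave 1346.2 and 1336.3 on day 30, 1289.8 and 1429.8 on day 35, and 996.3 and 1269.3 on day 56. Every sample of days 14 to 20 lay above every sample of the other days, and the samples of day 56 overlapped those of day 0. Mov10l1 rose by 1.26 ± 0.20 on day 8 over day 0 (adjusted p = 0.00265) and fell by 1.39 ± 0.20 on day 35 against day 20 (adjusted p = 0.000172). The adult level was 0.20 ± 0.20 above that of day 0 and was not called (adjusted p = 0.484). The dimmer probe set, also on type C, had day means between 38.75 and 185, highest on day 14, and its day means correlated with those of the brighter one at r = 0.94 over 11 days. Its samples of day 0 were 96.7 and 12.8, and it was called higher than on day 0 only on day 20 (1.70, adjusted p = 0.0481), as were 9.09% of all probe sets. Against day 20 it differed by -1.36 ± 0.61 on day 30 (adjusted p = 0.234) and by -0.74 ± 0.61 on day 35 (adjusted p = 0.553), and neither was called.

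The fall of these 3 genes lay mostly in the step between days 20 and 30, where 3 of the 13 probe sets were called lower, against 1.34% of all. On day 30 against day 20, the brighter Mov10l1 probe set fell by 1.41 ± 0.20 (adjusted p = 0.000164), Piwil2 by 1.23 ± 0.30 (adjusted p = 0.021) and Tdrkh by 1.19 ± 0.30 (adjusted p = 0.0222). The spermatid marker sum was 35840 and 39410 on day 30, against 309 and 398.2 on day 20; its part in this fall was not tested. The step calls of Piwil2 and Tdrkh were each lost without either sample of day 30, and also without sample 2 of day 20 for Piwil2 (adjusted p = 0.194) and sample 1 of day 20 for Tdrkh (adjusted p = 0.128). Median scaling of the arrays also ended the Piwil2 call (adjusted p = 0.0689). The falls of all 3 on day 35 against day 20 were called whichever sample was left out.

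Mael encodes a granule protein with an HMG-like domain that transposon silencing needs. Its only probe set, on type B, gave 6.4 and 10.9 on day 0, 8.4 and 14.8 on day 3, 27 and 26.3 on day 6, 29.5 and 22.1 on day 8, and 22.8 and 43.7 on day 10. It gave 73.6 and 158.9 on day 14, 279 and 132 on day 18, and 236.8 and 137.8 on day 20. It gave 468.7 and 432.1 on day 30, 439.5 and 299.1 on day 35, and 299.2 and 358.3 on day 56. Every sample up to day 10 lay under the signal of 50 used as the filter, and every sample from day 14 on lay above it. Mael was called higher than on day 0 from day 14 at every later day, which held for 1.91% of all probe sets, and reached 3.81 ± 0.39 on day 56 over day 0 (adjusted p = 4.22e-07). None of its changes between days 0, 8, 14, 20, 35 and 56 in turn was called, and day 14 was 1.59 ± 0.39 above day 8 (adjusted p = 0.0664). With either sample of day 18 or of day 20 left out, this change had an adjusted p between 0.0422 and 0.0462.

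Ddx4, the mouse vasa homologue, encodes a DEAD-box RNA helicase and is a standard marker of germ cells and their granules. Its brighter probe set, on type A, gave 73 and 98.4 on day 0, 143.2 and 115.7 on day 3, 305.9 and 281.3 on day 6, and 449.5 and 365.1 on day 8. It gave 476 and 334 on day 10, 887.9 and 787.5 on day 14, 1230 and 1132.6 on day 18, and 486.4 and 1217.8 on day 20. It gave 1129.9 and 1144.5 on day 30, 1234.6 and 1431.1 on day 35, and 1520.6 and 1499.5 on day 56. Sample 1 of day 20 lay between the samples of day 10 and those of day 14, whereas sample 2 of day 20 lay among those of days 18 to 35. Ddx4 rose by 2.06 ± 0.30 on day 8 over day 0 (adjusted p = 0.00131) and by 3.92 ± 0.30 on day 56 over day 0 (adjusted p = 1.94e-08). It was called higher than on day 0 from day 6 at every later day, as were 0.0928% of all probe sets. Whether Ddx4 kept this first day without single samples was not tested. On day 14 it was 1.02 ± 0.30 above day 8 and not called (adjusted p = 0.17), but the same change had an adjusted p of 0.0119 without sample 1 of day 20 and 0.0118 without sample 2. On day 35 it was 0.77 ± 0.30 above day 20 (adjusted p = 0.13), and without sample 2 of day 20 this was 1.42 (adjusted p = 0.00094).

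The dimmer Ddx4 probe set, on type C and with the suffix _i, covered a narrower range, with day means between 83.3 on day 0 and 248.7 on day 18. Its samples of day 0 were 127.5 and 39.1, and on day 56 they were 171.6 and 222.6. It was called higher than on day 0 from day 10 at every later day, as were 0.605% of all probe sets. On day 56 it was 1.25 ± 0.41 above day 0 (adjusted p = 0.0229). Without sample 2 of day 0 this was 0.56 (adjusted p = 0.332), and without sample 2 of day 56 it was 1.08 (adjusted p = 0.136). The day means of both Ddx4 probe sets correlated at r = 0.72 over 11 days. Suffixes such as _i and _r mark probe sets that the array maker built with fewer probes or with some of its selection rules dropped.

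Dazl encodes an RNA-binding protein that promotes translation of germ cell messenger RNAs. The brighter of its probe sets, on type A, gave 70.7 and 312.2 on day 0, 122.3 and 441.9 on day 3, 443.3 and 1386.3 on day 6, and 805.8 and 1627.2 on day 8. It gave 974.2 and 1564.6 on day 10, 1054.2 and 2126.5 on day 14, 879.5 and 1486 on day 18, and 125.6 and 1324.5 on day 20. It gave 645.2 and 536.9 on day 30, 670.1 and 246.4 on day 35, and 306.6 and 342.9 on day 56. Sample 2 was the higher one on all 8 days from day 0 to day 20, by up to 3.24 on the log2 scale on day 20, and on 1 of the 3 later days. Dazl was called higher than day 0 on day 14 (3.17 ± 0.87, adjusted p = 0.0289) and day 18 (2.78 ± 0.87, adjusted p = 0.0293), which held for 4.33% and 8.47% of all probe sets. On day 8 it was 2.78 ± 0.87 above day 0 and not called (adjusted p = 0.129). The same change was called with the sample number as a block (adjusted p = 0.0416) and without sample 1 or sample 2 of day 20 (adjusted p = 0.0386 and 0.0384). Its difference of day 20 from day 14 was -1.80 ± 0.87 and not called. Without sample 2 of day 20 this difference was -3.42 (adjusted p = 0.0119), and without sample 1 of day 20 it was -0.18. The dimmer one, also on type A, had day means between 57.55 and 139 and was called higher than day 0 on days 14, 18 and 35, by 1.04, 1.06 and 1.03; on day 35 this held for 12.5% of all probe sets.

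**Figure D2:**
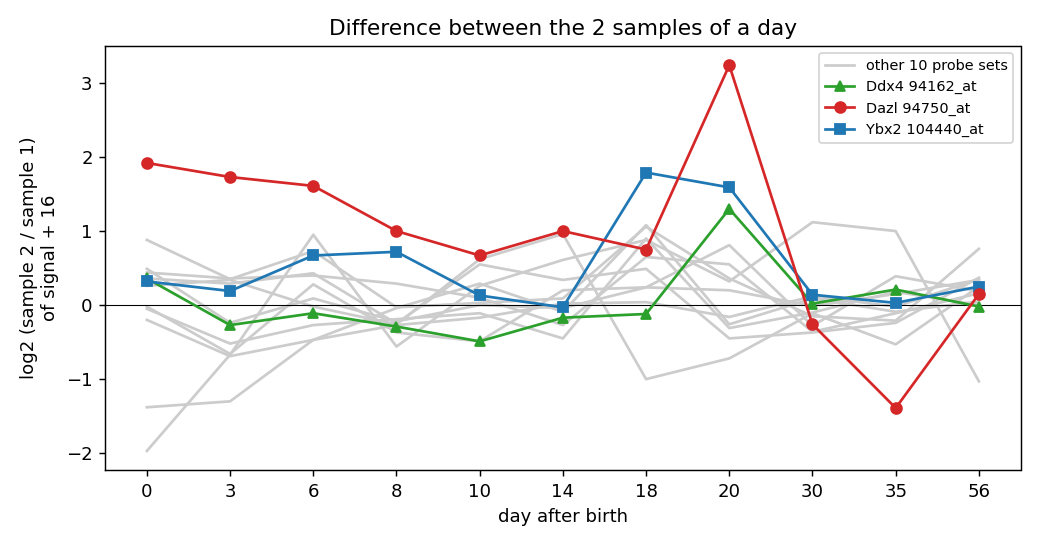
Log2 ratio of sample 2 over sample 1 (signal + 16) on each day for the 13 probe sets, with the brightest ones of Dazl, Ybx2 and Ddx4 in colour and the other 10 in grey. Dazl is above 0 on all days from 0 to 20 and stands at 3.24 on day 20, where Ddx4 is at 1.30.

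On type A the beta-actin control was higher in sample 2 on the same 8 days from 0 to 20 as Dazl, with 6297.6 in sample 2 against 1283.6 in sample 1 on day 0 and 3677.9 against 1705.6 on day 20. On days 30, 35 and 56 the ratio of sample 2 to sample 1 was 0.812 to 1.15. The Gapdh control (3′ probe set) on type A was higher in sample 2 on 4 of the 8 days from 0 to 20, with ratios of 0.606 to 1.19. On the same arrays the brightest Ddx4 and Ddx25 probe sets were higher in sample 2 on 2 and 1 of these 8 days. The ratio of the 3′ to the 5′ beta-actin control probe set was 1.12 in sample 1 and 1.75 in sample 2 of day 20. The other arrays of type A lay between 1.29 and 1.78. The part of these differences in the Ddx4 and Dazl signals was not tested.

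Ddx25 encodes GRTH, an RNA helicase of spermatocytes and round spermatids that exports messenger RNAs to the chromatoid body and aids their translation. Its brightest probe set, on type A, gave 116.8 and 112.1 on day 0, 153.8 and 102.3 on day 3, 156.3 and 126.4 on day 6, 217.2 and 188.7 on day 8, and 201.6 and 185.2 on day 10. It gave 343.2 and 247.4 on day 14, 951.7 and 1784.2 on day 18, and 2170.8 and 1748.6 on day 20. It gave 2519.1 and 2351 on day 30, 2294.4 and 2594.5 on day 35, and 2543.9 and 2544.4 on day 56. All samples from day 18 on lay above all earlier ones, and those of days 30 to 56 all lay between 2294.4 and 2594.5. Ddx25 rose by 2.67 ± 0.26 on day 20 over day 14 (adjusted p = 4.55e-06) and by 4.29 ± 0.26 on day 56 over day 0 (adjusted p = 1.08e-09). Of that, 2.10 ± 0.26 lay between days 14 and 18 (adjusted p = 0.00011), a step in which 3 of the 13 probe sets were called higher, against 2.57% of all.

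A further Ddx25 probe set on type A followed the same course, with r = 1.00 over 11 day means, and rose by 2.85 on day 20 over day 14 and by 4.04 on day 56 over day 0. The third, on type C and with the suffix _r, did not follow it: its day means lay between 145.2 and 475.4, highest on day 30, and correlated at r = 0.28 with those of the brightest one. It gave 110 and 196.8 on day 56, against 136.8 and 265.5 on day 0, a difference of -0.34 ± 0.38 (adjusted p = 0.521). It was called higher than day 0 on day 30 alone (1.24 ± 0.38, adjusted p = 0.0152), as were 12.5% of all probe sets. Which transcripts the 3 probe sets match was not tested.

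Ybx2 encodes MSY2, a Y-box protein that binds and stores messenger RNAs in spermatocytes and spermatids. Its only probe set, on type A, gave 5.8 and 11.2 on day 0, 11 and 14.7 on day 3, 13.7 and 31.4 on day 6, 14.1 and 33.7 on day 8, and 13.6 and 16.4 on day 10. It gave 382.9 and 373.4 on day 14, 879.4 and 3072.9 on day 18, and 956.7 and 2920.5 on day 20. It gave 3636.6 and 4001.7 on day 30, 4252.9 and 4348.2 on day 35, and 1795.7 and 2138.3 on day 56. Every sample to day 10 lay under 50 and every sample from day 14 on at 373.4 or more, while on days 18 and 20 the samples of a day stood far apart. Ybx2 rose by 3.67 ± 0.48 on day 14 over day 10 (adjusted p = 0.000718), the only member called in that step, as were 0.405% of all probe sets. Day 18 was 2.08 ± 0.48 above day 14 (adjusted p = 0.0197), a call that was lost without either sample of day 14 (adjusted p = 0.121 and 0.134) or sample 2 of day 18 (adjusted p = 0.241). With a pseudocount of 1 the call of day 18 over day 14 was also lost (limma's moderated test, adjusted p = 0.0541). Both adult samples lay below those of days 30 and 35, but day 56 against day 35 was not called (-1.13 ± 0.48, adjusted p = 0.575). Day 56 was 6.34 ± 0.48 above day 0 (adjusted p = 1.63e-08).

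By window, 4 of the 13 probe sets were called higher on day 8 than on day 0, against 0.995% of all, and 0 lower, against 0.824% of all. They were the brighter ones of Ddx4 and Mov10l1 and those of Piwil2 and Tdrkh. The members' median change was 1.02, against 0.04 over all probe sets. Without sample 1 of day 8 the count was 1, since Piwil2 (adjusted p = 0.0887), Tdrkh (adjusted p = 0.0503) and Mov10l1 (adjusted p = 0.0527) lost their calls while their changes stayed between 1.15 and 1.68.

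Between days 8 and 14 the only member called was Ybx2, higher by 3.35 ± 0.48 (adjusted p = 0.00102), against 0.728% of all probe sets, and the median change was 0.62 against -0.03. The count was 2 without either sample of day 18 and 3 without either sample of day 20. Between days 14 and 20, 3 members were called higher, against 5.29% of all: the 2 Ddx25 probe sets of type A and Ybx2. The median changes were -0.09 for the members and -0.13 for all, and 0.18 and 0.06 when each array was scaled to the median of its type. Ybx2 was 2.10 ± 0.48 higher on day 20 than on day 14 (adjusted p = 0.00674). That call was lost without sample 2 of day 14 (adjusted p = 0.0511) and without sample 2 of day 20 (1.30, adjusted p = 0.0984). Spermatocyte markers summed to 15810 and 18320 on day 20, against 6734 and 7686 on day 14. Of the 9 measured, 3 were called higher and 2, Sycp1 and Dmc1, lower, with a median change of 0.14. Of all probe sets, 5.29% were called higher and 6.37% lower. The markers' part in these changes of the members was not tested.

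Between days 20 and 35, 3 members were called lower, against 2.70% of all, and 0 higher, against 4.35% of all, with medians of 0.03 and -0.11. Ybx2 was 1.35 ± 0.48 higher on day 35 than on day 20 and not called (adjusted p = 0.0939), and without sample 2 of day 20 it was 2.15 (adjusted p = 0.00952). Between days 35 and 56 limma called 0 members, with 1 of 13 at an unadjusted p under 0.05, and it called 0 probe sets higher and 0.0111% lower in the whole series. On day 56 against day 0, 7 members were called higher, against 12.5% of all, and 0 lower, against 17.3% of all. These were both Ddx4 probe sets, Piwil2, Mael, the 2 Ddx25 probe sets of type A, and Ybx2. The median change was 1.25, against -0.22 for all probe sets, and 1.56 against -0.03 when each array was scaled to the median of its type.

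**Figure D3:**
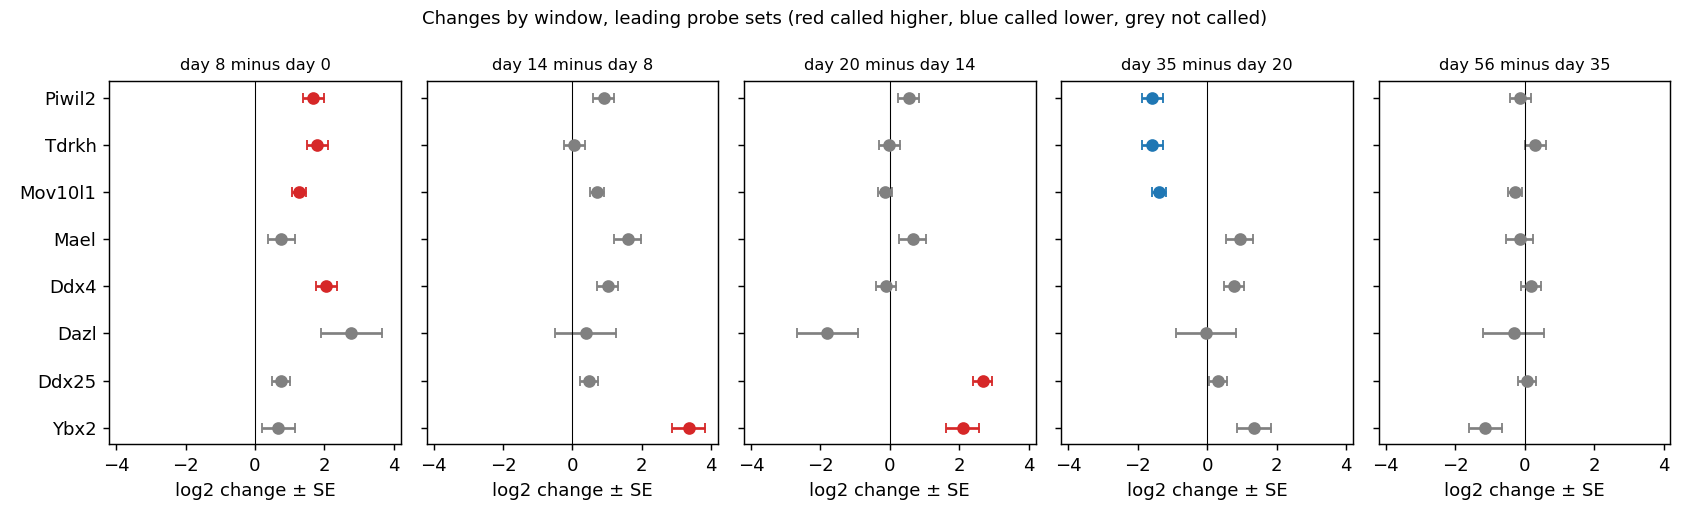
Log2 change ± SE, later minus earlier day, of the brightest probe set of the 8 genes in 5 windows; red points were called higher, blue lower and grey not called. Piwil2, Tdrkh and Mov10l1 are red on day 8 over day 0 and blue on day 35 against day 20, whereas Ddx25 and Ybx2 are red on day 20 over day 14.

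**Figure D4:**
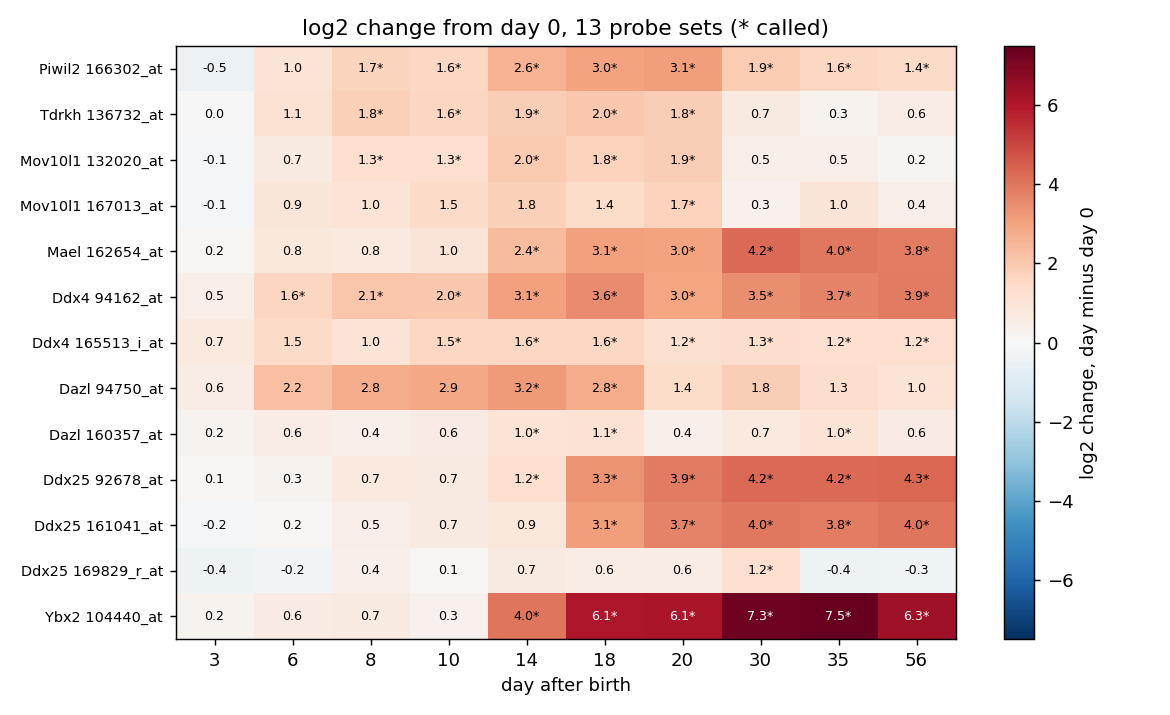
Log2 change from day 0 on each later day for all 13 probe sets, with the value printed in each cell and an asterisk where it was called. The comparisons share the samples of day 0; Ybx2 has the darkest cells, and Tdrkh and the brighter Mov10l1 probe set carry asterisks on days 8 to 20 and not on days 30 to 56.

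Against day 0, the members called higher numbered 0 of 13 on day 3, 1 on day 6, 4 on day 8, 5 on day 10, 10 on day 14, 11 on day 18, 10 on day 20, 8 on days 30 and 35 and 7 on day 56. Over all probe sets the share was 0.00742% on day 3, 0.256% on day 6, 0.995% on day 8, 2.03% on day 10, 4.33% on day 14, 8.47% on day 18, 9.09% on day 20 and 12.5% on each of days 30, 35 and 56. The members' number was thus highest on day 18, while the share of all probe sets was highest on days 30 to 56. The members called lower numbered 0 on each of the 10 days. Of all probe sets, 0.00742% were called lower on day 3, 0.241% on day 6, 0.824% on day 8, 1.47% on day 10, 3.52% on day 14, 8.58% on day 18, 11.3% on day 20, 16.3% on day 30, and 17.3% on each of days 35 and 56. All of these comparisons use the same 2 samples of day 0.

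The likeness of these courses was described by Pearson's r over the 11 day means, which share the same samples and ages. Tdrkh and Mov10l1 correlated at 0.95, Piwil2 and Mov10l1 at 0.86, and Piwil2 and Tdrkh at 0.80. Mael and Ybx2 correlated at 0.98, Mael and Ddx25 at 0.97, and Ddx25 and Ybx2 at 0.97. Ddx4 correlated at 0.93 with Mael, 0.89 with Ybx2 and 0.87 with Ddx25, and at 0.76 with Piwil2, 0.40 with Mov10l1 and 0.36 with Tdrkh. Mov10l1 and Ddx25 correlated at 0.12.

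Among 7434 other genes, those nearest in course were found for each member that passed the F-test with its brightest probe set. Cct8, a subunit of the cytosolic chaperonin, was nearest to both Tdrkh (r = 0.966) and Mov10l1 (r = 0.968). Kdm5b, a histone H3 lysine demethylase, was nearest to Piwil2 (r = 0.979), and Chfr, a mitotic checkpoint ubiquitin ligase, to Ddx4 (r = 0.982). Mael ran closest to Adad1, a testis RNA-binding protein (r = 0.99), Ddx25 to H3c14, a histone H3 gene (r = 0.996), and Ybx2 to Cfap65, a protein of the sperm flagellum (r = 0.996). The H3c14 probe set carries the suffix _r. The genes above r = 0.95 numbered 1 for Tdrkh, 1 for Mov10l1, 6 for Piwil2, 26 for Ddx4, 264 for Mael, 369 for Ybx2 and 666 for Ddx25. The courses differ in range, and the part of this in the counts was not tested.

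Other genes of the piRNA pathway were set beside the members, 14 of 24 being measured. On day 56 against day 0, 7 were called higher and 3 lower, against 12.5% and 17.3% of all probe sets, and their median change was 0.97, against -0.22 for all probe sets. Tdrd6, a Tudor protein of the chromatoid body, gave 3369.2 and 4135.4 on day 56, against 82.6 and 104 on day 0, a rise of 5.11 ± 0.44 (adjusted p = 6.48e-08). Gtsf1, a zinc finger partner of PIWI proteins, gave 11030.2 and 11518.3 on day 56, against 550 and 1223.3 on day 0 (3.75 ± 0.31, adjusted p = 3.44e-08). Tdrd7, another Tudor protein, rose by 3.21 ± 0.26. Dnmt3a, a de novo DNA methyltransferase, went the other way, with 104.8 and 78.7 on day 56, against 615.5 and 557.6 on day 0 (-2.49 ± 0.26, adjusted p = 5.54e-07). Between days 0 and 8 limma called 0 of the 14, with 4 at an unadjusted p under 0.05. Over all probe sets 0.995% were called higher and 0.824% lower in that window, so a count of 0 of 14 lies near the background. Between days 20 and 35, 3 of the 14 were called lower, against 2.70% of all, Tex19.1 (-1.24), Wdr77 (-1.51) and Dnmt3a (-1.03).

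**Figure D5:**
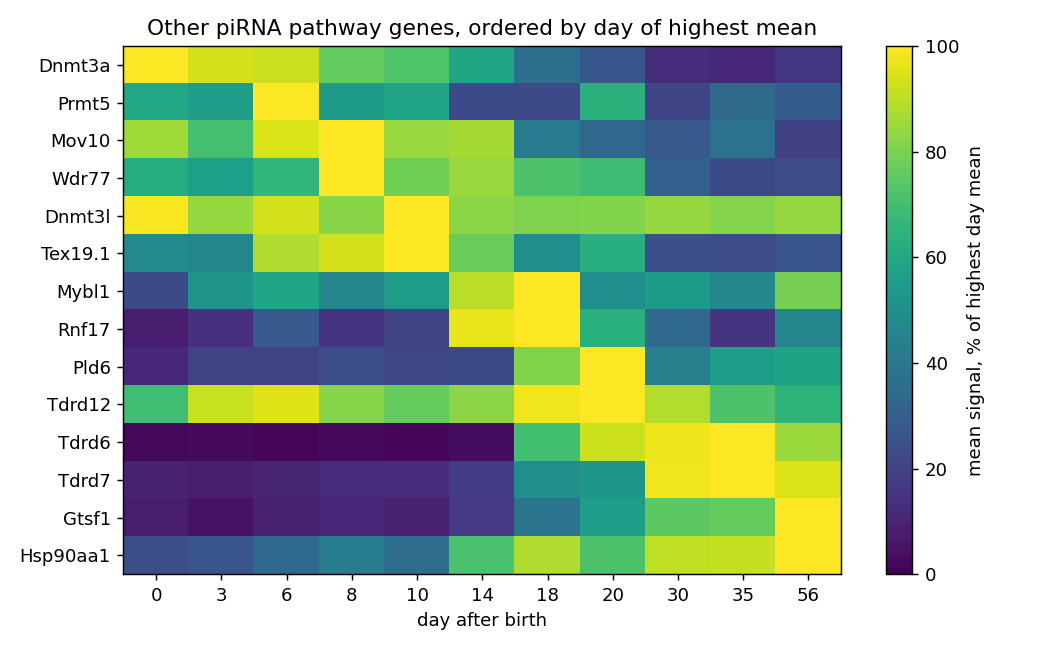
Mean signal of 14 other piRNA pathway genes on each day as a percentage of the gene's highest day mean, ordered by the day of that mean. Dnmt3a is highest on day 0, and Gtsf1 and Hsp90aa1 are highest on day 56.

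Of 22 genes of the chromatoid body and of RNA decay, 16 were measured, and on day 56 against day 0, 3 were called higher and 5 lower, against 12.5% and 17.3% of all probe sets. The 2 called higher on day 35 than on day 20, against 4.35% of all, were Kif17, a kinesin found with the chromatoid body, and Tsks, a substrate of testis-specific kinases. Kif17 gave 2521 and 1705.9 on day 35, against 64.8 and 39.5 on day 20 (4.96 ± 0.45, adjusted p = 4.19e-07), and Tsks gave 520.7 and 458.1, against 6.1 and 2.5 (4.64 ± 0.25). Dicer1, which cuts microRNA precursors, differed by -1.82 ± 0.32 on day 56 from day 0 (adjusted p = 0.000217). Tnrc6a, a partner of Argonaute proteins, fell by 1.87 ± 0.42 on day 20 against day 14 (adjusted p = 0.00567).

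Of 31 germ cell RNA-binding and storage genes, 26 were measured, with 8 called higher and 2 lower on day 56 against day 0, where 12.5% and 17.3% of all were called. Papolb, a testis poly(A) polymerase, rose by 5.29 ± 0.31 and Ybx3, a Y-box relative of Ybx2, by 3.22 ± 0.46. Cpeb2, a cytoplasmic polyadenylation protein, rose by 2.68 ± 0.39. Fmr1, the fragile X RNA-binding protein, fell by 2.37 ± 0.41 on day 20 against day 14 (adjusted p = 0.000922).

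Messenger RNAs that spermatids are known to store were measured for all 18 genes listed, and 15 were called higher on day 35 than on day 20, against 4.35% of all, with a median change of 4. Tnp2, a transition protein, gave 14966.5 and 13021.4 on day 56, against 26.3 and 35.2 on day 0 (8.23 ± 0.50). Ldhc, the germ cell lactate dehydrogenase, rose by 9.05 ± 0.74 on day 56 over day 0. Between days 14 and 20, a window in which both Ddx25 and Ybx2 rose, 6 of the 18 were called higher, against 5.29% of all.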

How the data were processed

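Per the labels, total RNA of whole testis was isolated with TRIzol, and the authors deposited 1 signal intensity per probe set and array, scaled to a mean of 125. The software behind the intensities is not given in the sources used here. After leaving out 2% of probe sets at each end, array means lay between 125 and 125.1, and 46.0% to 63.1% of an array's probe sets had a signal of 50 or more. No detection calls were used, so precision rests on the number of arrays. Of 36899 probe sets, 198 were controls, 29131 named 1 gene, 724 several and 6846 none. Names came from the platform annotation, and 29044 were found in a RefSeq gene table (GRCm38.p6).

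A probe set was kept if 2 or more of its 22 arrays reached a signal of 50. Each array type was fitted apart in limma 3.58.1 (R 4.3.3) on 11 day means of log2(signal + 16), with eBayes and a variance trend, and 11 residual degrees of freedom. The fit was tested on simulated data. Two-sided p-values were adjusted within each comparison over the 26941 probe sets of the 3 types: an F-test, 6 windows, 10 steps from one day to the next and 10 contrasts against day 0, which share its samples. The text names all members' probe sets, up to 4 genes per list with the largest called window changes, and the nearest of the genes most like each member; single genes of other kinds, such as Tex19.1 and Wdr77, were named after their values were seen. The members and lists were chosen with earlier results of these data known. The alternatives were pseudocounts of 1 and 64, a floor of 32, no filter, a filter at 125, scaling to the median, quantile normalization, 1 probe set per gene, the sample number as a block, and leaving out each sample.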

Additional observations from a re-analysis of the deposited data

How the results depend on the processing

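Of 672 changes of single probe sets in the 6 windows, recomputed under alternatives that kept all samples, 666 kept their direction and their side of the threshold, 1 lost its call, 5 gained one and 0 reversed; changes outside these windows are not among them. The dimmer Ddx4 probe set on day 56 over day 0 was 0.89 with a pseudocount of 64. The count of members called higher on day 14 than on day 8 was 2 with a floor of 32, with quantile normalization and with 1 probe set per gene, each time by gaining Mael, against 1 as reported. With the replicate block the count called higher on day 35 than on day 20 was 1, Ybx2, against 0, and Dazl was called on day 8 over day 0 (adjusted p = 0.0416). The sample numbers were not taken as pairs in the main fit, so any difference shared by a number stayed in its spread. The differences between the samples of a day correlated above 0.1 in 28, 34 and 23 of 55 pairs of days on types A, B and C. On 10, 11 and 10 of the 11 days the samples lay closer to their own number. Leaving out each sample in turn, the members called higher numbered 1 to 5 on day 8 over day 0, 1 to 3 on day 14 over day 8, 0 to 2 on day 35 over day 20 and 6 to 7 on day 56 over day 0; those called lower on day 20 than on day 14 numbered 0 to 1. The F-test called 8 to 12. Where a count changed with another setting, the cause was not tested. Whether the day from which a probe set was called higher than day 0 was kept under these settings was not tested. Scaling to the median ended the call of Piwil2 between days 20 and 30 (adjusted p = 0.0689). It moved the median change of all probe sets on day 56 over day 0 to -0.03, against -0.22, and the share of calls that were higher to 51.0%, against 41.9%; on day 20 over day 14 that share was 65.6%, against 45.4%. With 2 samples per day, small changes between neighbouring days were not detectable.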
